A study of Homo sapiens with 6 samples.

Results

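The genes described here are 9 components of the MHC class I pathway in the human glioblastoma cell line LN229: the heavy chains HLA-B, HLA-C, HLA-E and HLA-F, the light chain B2M, the peptide transporter subunits TAP1 and TAP2, the immunoproteasome subunit PSMB8 and the transactivator NLRC5. They were chosen by name from the 33841 genes of the count table, and all 9 were found, on 1 row each, and passed the filter on low counts. RNA-seq libraries were made from 3 samples of parental cells (WT, PARP3+/+) and 3 samples of cells in which both copies of PARP3, an enzyme that ADP-ribosylates proteins at DNA breaks, were disrupted with a Cas9 nickase (PARP3-/-). All samples were grown in serum-containing medium with no treatment named in the labels. The study calls the samples of a genotype biological replicates of RNA extracts. The labels do not say from which of the knockout clones the libraries came, so the genotype and the history of a clone cannot be told apart.

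The class I pathway shows fragments of the cell's own proteins to CD8 T cells and natural killer cells. Proteasomes cut cytosolic proteins into peptides, the TAP transporter carries these into the endoplasmic reticulum, and chaperones load them onto a polymorphic heavy chain paired with the invariant B2M chain, without which the complex does not reach the cell surface. Most of the genes share promoter elements read by NLRC5 with RFX, CREB and NF-Y factors, and many also answer to interferons and NF-kB. In gliomas, as in other tumors, low class I expression is known as a route by which cells are missed by T cells.

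The libraries held 29692065 to 46010369 counts, and 3 counts corresponded to 0.0673 to 0.0995 CPM after TMM scaling, the unit of all levels below. The libraries of replicate 1 stood apart from those of replicates 2 and 3 in both genotypes (chi-square per degree of freedom of 106 and 72.4 against 12.2 in WT, and of 67.0 and 53.2 against 4.10 in PARP3-/-), so the counts of called genes are also given without both. PARP3 itself measured 34.8, 22.4 and 24.2 CPM in WT and 19.0, 22.5 and 19.5 CPM in PARP3-/- libraries (log2 fold change -0.42, SE 0.18, adjusted p = 0.307, and adjusted p = 0.0469 with the replicate number as a block). The genotypes overlapped, so the PARP3 RNA level did not separate the labels. The glial markers VIM, NES, S100B, SOX2 and OLIG2 were detected, whereas GFAP, the astrocyte filament protein, had 1 to 17 counts per library.

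The promoters of HLA-B, HLA-C and B2M are shown because these genes had the largest differences among the 9. Each line gives the 250 bases before the RefSeq start on GRCh38.p14, 5' to 3' on the gene's strand, with capitals on matches to 4 motifs searched on both strands: the interferon response core, a GAAA block repeated after 2 bases of any kind, an NF-kB motif of 10 bases (the longest capital stretch of the HLA-B line), the CRE core TGACG and the inverted CCAAT box ATTGG.
HLA-B, chr6:31357180-31357429, strand -: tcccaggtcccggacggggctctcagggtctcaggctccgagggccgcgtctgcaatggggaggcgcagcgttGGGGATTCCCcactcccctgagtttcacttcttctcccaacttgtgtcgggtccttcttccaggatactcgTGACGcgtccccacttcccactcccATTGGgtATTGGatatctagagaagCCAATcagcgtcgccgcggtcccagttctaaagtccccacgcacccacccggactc
HLA-C, chr6:31272093-31272342, strand -: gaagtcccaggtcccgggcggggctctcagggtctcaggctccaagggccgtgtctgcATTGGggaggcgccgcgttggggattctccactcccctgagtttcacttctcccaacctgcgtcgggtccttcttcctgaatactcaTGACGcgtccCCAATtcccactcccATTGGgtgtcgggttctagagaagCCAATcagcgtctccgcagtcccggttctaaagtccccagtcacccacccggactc
B2M, chr15:44711267-44711516, strand +: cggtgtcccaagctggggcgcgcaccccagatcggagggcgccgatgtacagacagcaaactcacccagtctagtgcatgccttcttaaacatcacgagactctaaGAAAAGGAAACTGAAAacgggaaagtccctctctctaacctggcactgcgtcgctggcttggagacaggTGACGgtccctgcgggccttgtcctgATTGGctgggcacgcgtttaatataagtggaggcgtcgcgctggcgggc
The reference promoters of HLA-B and HLA-C were alike in layout, with the CRE core 106 to 102 bases before the start in HLA-B and 105 to 101 in HLA-C. They differed in the NF-kB letters: HLA-B held the full motif 177 to 168 bases before its start, whereas the closest stretch of HLA-C, starting 173 bases before its start, was GGGGATTCTC, with the substitution C9T counted from the motif's 5' end. The full motif occurred in 24 of 35116 RefSeq promoter windows (0.0683%). B2M held 2 overlapping interferon response cores, 144 to 135 and 138 to 129 bases before the start, a motif present in 3.02% of all windows. Among the 7 genes with a promoter entry, the core was also found in HLA-F, TAP1 and TAP2. Thus 4 of 7 carried the core in at least 1 window, whereas HLA-B, HLA-C and PSMB8 had no exact match there. Looser forms of an interferon response element were not searched, so such an element is not shown to be absent from these promoters. The CRE core, present in 21.2% of all windows, was found in 5 of the 7 genes, and the inverted CCAAT box occurred in 32.0% of all windows. These matches describe the reference sequence and not sites bound in LN229 cells.

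The question for each gene was whether its RNA level differed between PARP3-/- and WT cells. HLA-B was lower in the absence of PARP3, and it was the only one of the 9 genes past an adjusted p of 0.05 in edgeR's quasi-likelihood test. With 0 called higher, this set 1 of 9 lower against 3.33% of all 17144 tested genes called lower and 1.36% called higher. At an unadjusted p under 0.05, 2 of the 9 were lower and 1 was higher, beside 9.03% and 7.23% of all tested genes. DESeq2 also called 1 lower and 0 higher, where it called 3.84% of all genes lower and 2.09% higher. None of the 9 passed an adjusted p of 0.001 with a log2 fold change beyond 1, which 0.443% of all genes passed downward and 0.0350% upward. Median log2 fold change over the 9 genes was -0.19, with 6 below and 3 above 0, beside -0.0062 over all tested genes. With the replicate number as a block, 2 were called lower (HLA-B and HLA-C) and 1 higher (B2M), where 12.5% and 11.8% of all genes were called lower and higher. Without replicate 1 of both genotypes, 4 were called, HLA-B and HLA-C lower and B2M and TAP1 higher, where 10.1% and 8.91% of all genes were called.

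HLA-B and HLA-C encode classical heavy chains that present peptides to CD8 T cells and also serve as ligands of natural killer cell receptors. HLA-B (ENSG00000234745, hg38 chromosome 6, 31269491 to 31357188) measured 41.9, 33.9 and 35.0 CPM in the WT libraries and 24.2, 19.4 and 19.6 CPM in the PARP3-/- libraries. The groups did not overlap, with the lowest WT library above the highest PARP3-/- library, and within each genotype replicate 1 was the highest. The mean fell from 36.9 ± 4.32 to 21.1 ± 2.73 CPM (SD, n = 3), a log2 fold change of -0.81 (SE 0.13, 95% interval -1.11 to -0.51, adjusted p = 0.0153), which is 1.75-fold lower; in bulk RNA, fewer expressing cells and less RNA per cell cannot be told apart. The 3 same-numbered pairs gave log2 differences of -0.79, -0.81 and -0.83. DESeq2 gave an adjusted p of 5.35e-06. The edgeR call was lost when WT replicate 3 (adjusted p = 0.0651), PARP3-/- replicate 2 (0.0836) or PARP3-/- replicate 3 (0.0851) was left out, with a log2 fold change between -0.92 and -0.71 over the 6 fits that left out 1 library.

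HLA-C (ENSG00000204525, chromosome 6, 31268749 to 31272130) measured 23.8, 19.0 and 19.5 CPM in WT and 16.8, 15.8 and 14.2 CPM in PARP3-/- libraries. The groups did not overlap, although the lowest WT and the highest PARP3-/- library were close. The log2 fold change was -0.41 (SE 0.12, 95% interval -0.70 to -0.13) and missed the threshold (adjusted p = 0.130), whereas the fit with the replicate block called it lower (-0.41, adjusted p = 0.00203). The log2 ratio of HLA-B to HLA-C counts within a library, compared after the values of both genes had been seen, was 0.83 ± 0.013 in WT and 0.43 ± 0.12 in PARP3-/- (SD, n = 3). The difference of -0.40 separated the groups, with p = 0.1 in the exact two-sided permutation test, the smallest that 3 against 3 allows (adjusted p = 0.1 over 2 ratios of HLA-B). The table's span of HLA-B reaches over HLA-C by 2640 bases, and class I heavy chains are close in sequence and rich in alleles. HLA-B and HLA-C both lie on strand -. The counting mode used, union, assigns a read on exons of both to neither gene, whatever the strand setting. Whether reads were lost in this way, exchanged between the heavy chains, or lost where the LN229 alleles differ from the reference, was not tested.

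HLA-E and HLA-F are non-classical heavy chains. HLA-E (ENSG00000204592), which displays leader peptides of other class I molecules to the NKG2A receptor of natural killer cells, was expressed at 108, 98.9 and 106 CPM in WT and 93.5, 102 and 97.2 CPM in PARP3-/- libraries. The genotypes overlapped, and the log2 fold change was -0.09 (SE 0.07, adjusted p = 0.656). HLA-F (ENSG00000204642) measured 9.28, 7.79 and 8.63 CPM in WT and 7.76, 7.99 and 6.59 CPM in PARP3-/- libraries, again with overlap (-0.20, SE 0.13, adjusted p = 0.536).

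**Figure D1:**
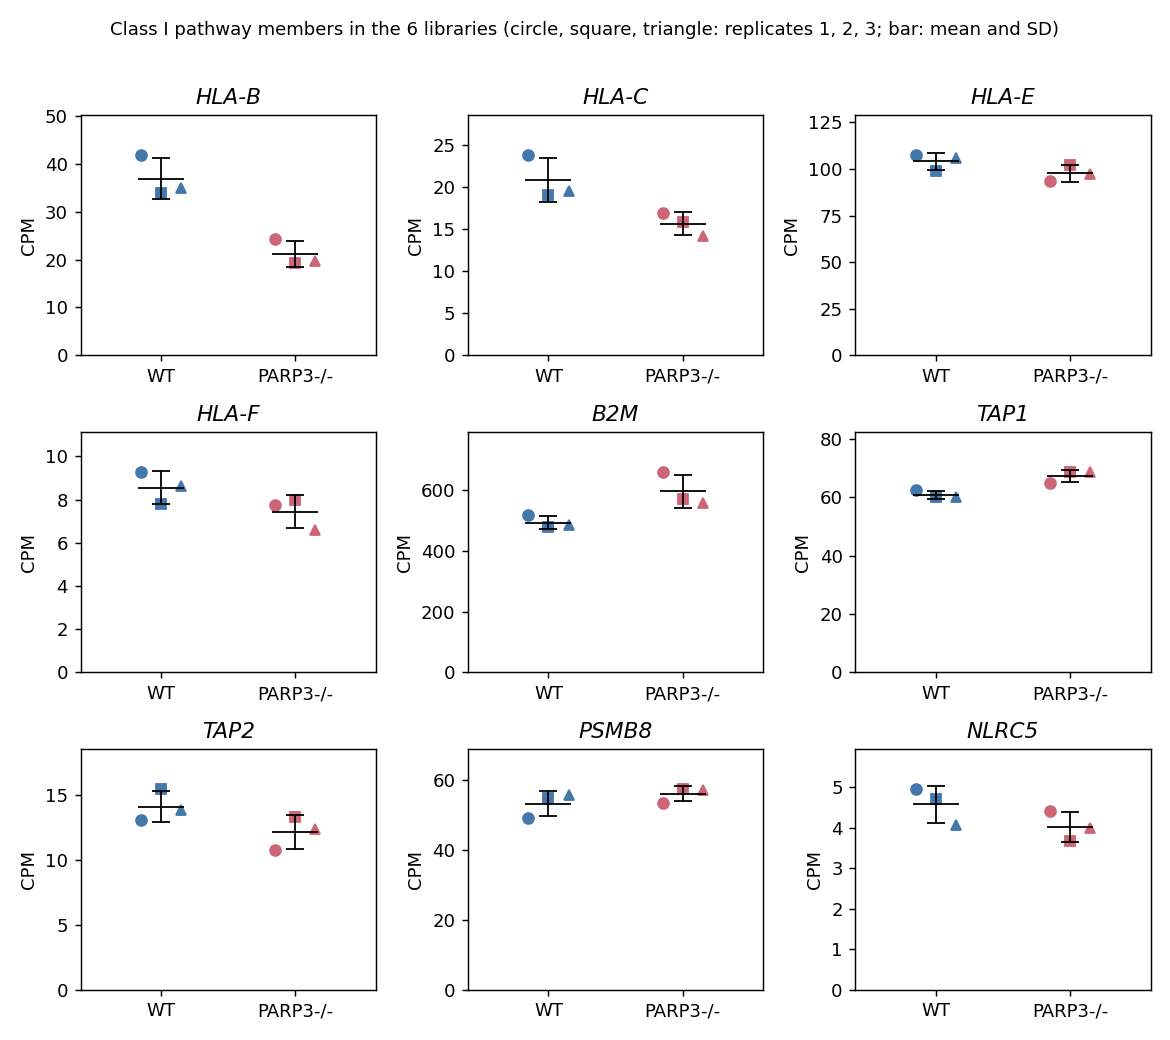
TMM-scaled CPM of the 9 class I pathway genes in each of the 3 WT and 3 PARP3-/- libraries, with 1 panel per gene and its own axis. HLA-B and HLA-C were lower in all 3 PARP3-/- libraries than in any WT library, and B2M and TAP1 higher.

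B2M, the light chain shared by all class I molecules, moved the other way from HLA-B. It lies on chromosome 15 (ENSG00000166710, 44711477 to 44718877) and measured 519, 477 and 484 CPM in WT and 659, 570 and 559 CPM in PARP3-/- libraries. All PARP3-/- values were above all WT values, and the library of replicate 1 was the highest of each genotype. The mean was 493 ± 22.1 in WT and 596 ± 55.2 CPM in PARP3-/- (SD, n = 3), with a log2 fold change of 0.27 (SE 0.10, 95% interval 0.036 to 0.51) that missed the threshold (adjusted p = 0.232). The fit with the replicate block called it higher (0.27, adjusted p = 0.00512). Genes of chromosome 15 as a whole had a median log2 fold change of 0.15 (n = 594), above that of all genes. With the block, 206 of these 594 genes were called higher and 42 lower, beside 11.8% and 12.5% of all tested genes. The part of this chromosome-wide difference in the B2M value was not tested. The log2 ratio of HLA-B to B2M counts, chosen after the values were seen, was -3.75 ± 0.10 in WT and -4.83 ± 0.056 in PARP3-/- (SD, n = 3), without overlap (exact permutation p = 0.1).

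TAP1 and TAP2 form the transporter that moves peptides into the endoplasmic reticulum. TAP1 (ENSG00000168394) measured 62.6, 60.1 and 60.2 CPM in WT and 64.8, 68.7 and 68.6 CPM in PARP3-/- libraries. The groups did not overlap, but the difference was small and not called (log2 fold change 0.14, SE 0.07, adjusted p = 0.364, and 0.0667 with the replicate block). TAP2 (ENSG00000204267) measured 13.1, 15.4 and 13.8 CPM in WT and 10.7, 13.3 and 12.4 CPM in PARP3-/- libraries, with overlap (-0.21, SE 0.12, adjusted p = 0.461, and 0.0549 with the block). The table's span of PSMB9 covers all 8770 bases of TAP1, and union mode assigns a read on exons of both to neither gene unless strand separates them. Thus 2 of the 9 genes were separated downward and 2 upward, beside 12.0% and 10.8% of all tested genes.

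PSMB8 encodes an inducible catalytic subunit of the immunoproteasome, which takes the place of the constitutive subunit PSMB5. PSMB8 (ENSG00000204264) measured 49.1, 54.7 and 55.7 CPM in WT and 53.5, 57.3 and 57.2 CPM in PARP3-/- libraries, with overlap (log2 fold change 0.07, SE 0.08, adjusted p = 0.767). Within libraries, the log2 ratio of PSMB8 to PSMB5 counts was -1.84 ± 0.081 in WT and -1.66 ± 0.057 in PARP3-/- (SD, n = 3). Its difference of 0.18 separated the groups at the smallest p that the exact permutation test allows (p = 0.1, adjusted p = 0.3 over 3 subunit pairs). The ratio of PSMB9 to PSMB6 differed by 0.23 (exact permutation p = 0.4) and that of PSMB10 to PSMB7 by 0.21 (exact permutation p = 0.6), both with overlapping libraries and an adjusted p of 0.6. Between same-numbered libraries the ratio was higher in PARP3-/- in 3 of 3 pairs for PSMB8 to PSMB5 (by 0.068 to 0.26) and for PSMB9 to PSMB6 (by 0.095 to 0.35), and the pairs of PSMB10 to PSMB7 ran from -0.019 to 0.33. An exact test on 3 pairs cannot go below p = 0.25. NLRC5 (ENSG00000140853, chromosome 16), the transactivator of class I genes, was the lowest expressed of the 9. It measured 4.95, 4.71 and 4.07 CPM in WT and 4.41, 3.68 and 3.99 CPM in PARP3-/- libraries, with overlap (-0.19, SE 0.14, adjusted p = 0.633).

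**Figure D2:**
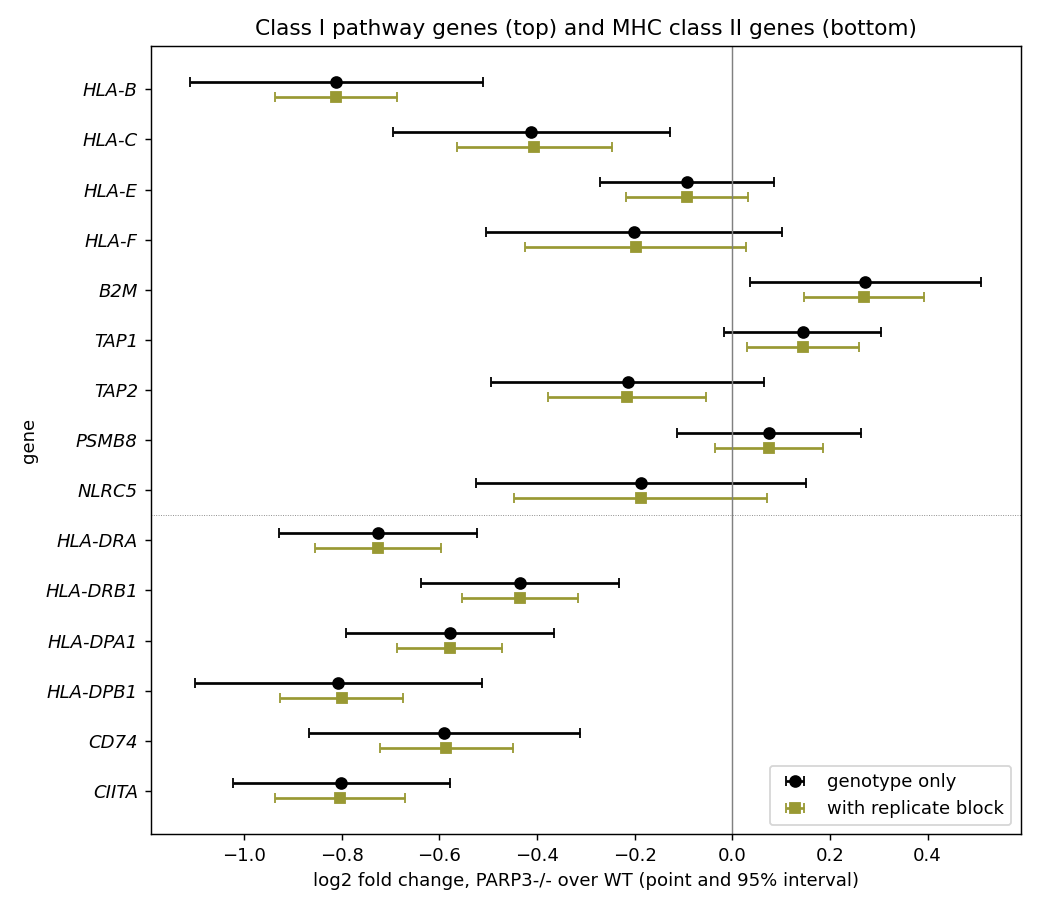
Log2 fold change (PARP3-/- over WT) of the 9 class I pathway genes (top) and 6 MHC class II genes (bottom), with 95% intervals, from the fit on genotype alone and the fit with the replicate block. HLA-B lies at -0.81 in both fits, and the intervals of HLA-C and B2M narrow with the block.

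The genes were also set on a scale of CPM per kb of median transcript length. That median is taken over the annotated transcripts of a gene and need not be the length expressed here. The order between genes is therefore rough. On this scale B2M was the most abundant in WT at 681, followed by HLA-E at 115. PSMB8 at 47.3 and HLA-B at 41.5 overlapped in WT, and the remaining neighbours PSMB9 (33.1), TAP1 (24.0), HLA-C (17.7), HLA-F (11.0), TAP2 (5.65) and NLRC5 (4.49) did not overlap with one another. In PARP3-/- libraries HLA-B stood at 23.7, below PSMB9 at 37.3 and overlapping with TAP1 at 26.5. TAP2 at 4.86 and NLRC5 at 3.95 overlapped there, and the order of the other genes was that of WT.

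**Figure D3:**
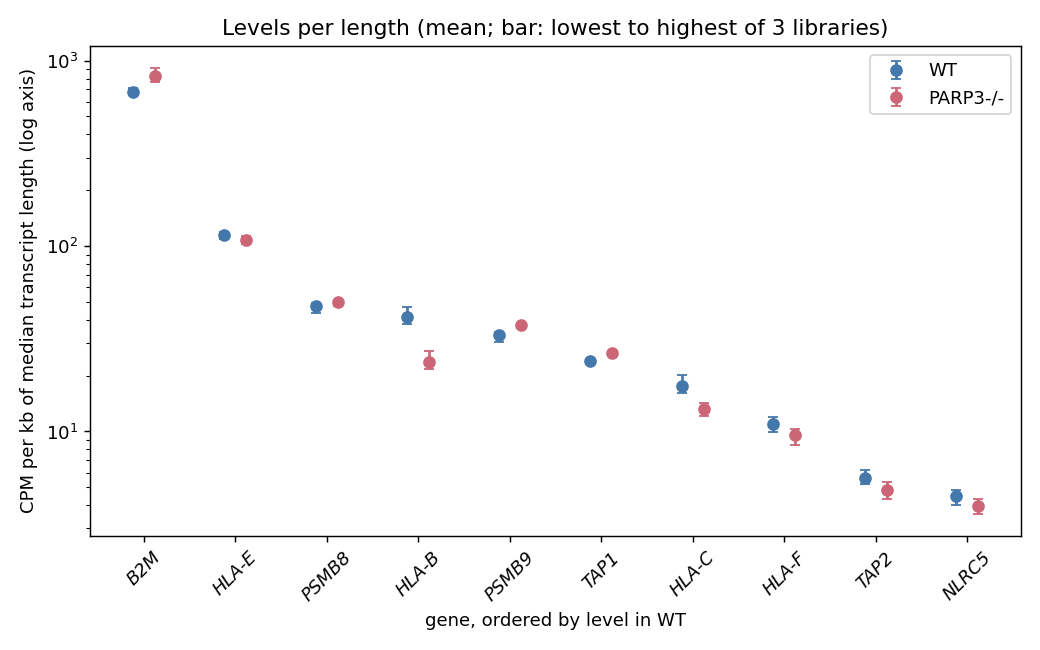
Mean level in CPM per kb of median transcript length (log axis) for the 9 genes and PSMB9, ordered by the WT mean, with bars from the lowest to the highest of 3 libraries per genotype. HLA-B went from the fourth place in WT (41.5) to the sixth in PARP3-/- (23.7).

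The rest of the pathway was read from 50 further genes, of which 49 were in the table and 47 were tested. Of these, 1 was called lower and 0 higher, both in edgeR and in DESeq2, with 4 lower and 4 higher (8.51% each) at an unadjusted p under 0.05 in edgeR, beside 9.03% and 7.23% of all tested genes. The median log2 fold change was -0.0015, with 24 below and 23 above 0. The gene called was CD1D, a class I-like molecule that presents lipids to natural killer T cells. CD1D had low counts, 59, 83 and 88 in WT and 20, 42 and 25 in PARP3-/- libraries, above the floor of 3 counts. These were 1.61, 1.98 and 2.14 CPM in WT and 0.663, 0.942 and 0.661 CPM in PARP3-/- libraries, without overlap (log2 fold change -1.32, SE 0.22, adjusted p = 0.0198). Its call was lost in 4 of the 6 fits that left out 1 library (without WT replicate 2 or 3 or PARP3-/- replicate 1 or 3), where adjusted p reached 0.108.

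With the replicate block, 4 of the 47 pathway genes (8.51%) were called lower and 7 (14.9%) higher, near the 12.5% and 11.8% of all tested genes, so the counts set the list apart in neither direction. Of those called higher, 4 were among the 8 peptide loading and trimming genes: TAPBP, which bridges TAP and the heavy chain (0.26), the trimming peptidases ERAP2 (0.36) and LNPEP (0.22), and the cytosolic peptidase TPP2 (0.20), all as log2 fold changes. TAPBPL, the TAPBP-related peptide editor, was called lower (-0.41), as was CD1D. Leaving out 1 library at a time in the fit on genotype alone moved TPP2 between 0.032 (without PARP3-/- replicate 1) and 0.38 (without WT replicate 1), TAPBP between 0.17 and 0.37 and TAPBPL between -0.58 and -0.26. PSME1, a subunit of the proteasome activator induced by interferon gamma, was called higher (0.21). The 5 catalytic subunits PSMB5, PSMB6, PSMB7, PSMB9 and PSMB10 were not called. Of these subunits PSMB9 came nearest to the threshold (0.18, edgeR adjusted p = 0.0504 with the block). Of the 13 transcription factors, 2 were called higher, IRF1 (0.26) and CREB1 (0.14), and 2 lower, ATF1 (-0.22) and NFYA (-0.18), each 15.4% and close to the shares of all genes, while RFX5, RFXAP and RFXANK were not called. None of these 10 genes passed in the fit on genotype alone, where their adjusted p lay between 0.115 and 0.718. The folding chaperones of the endoplasmic reticulum varied mainly with the replicate number: HSPA5 measured 2399, 620 and 658 CPM in WT and 1972, 672 and 648 CPM in PARP3-/- libraries.

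Of the 9 genes, 7 lie in the MHC region of chromosome 6, between 29722775 and 32853978. With the 9 left out, 100 other tested genes lie there, of which 6 were called lower and 1 higher. Of all tested genes, 3.33% were called lower and 1.36% higher. The median log2 fold change of the 100 was -0.010. The MHC class II genes, whose products present peptides to CD4 T cells, made up 5 of the 6 called lower, and without the 7 HLA-D genes of the interval, a split chosen after the values were seen, 1 was called lower (FLOT1) and 1 higher (DDAH2) of 93, with a median of 0.0086. HLA-B, at -0.81, lay below that median, while TAP2, the nearest of the 9 to the HLA-D genes, was at -0.21 (adjusted p = 0.461, and 0.0549 with the block), PSMB8 at 0.07 and TAP1 at 0.14. Beyond HLA-B in chromosomal order, HCP5 was as low at -0.82 (edgeR adjusted p = 0.129, and 0.0146 with the block). MICA and MICB on either side of HCP5 were at -0.07 and 0.06.

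**Figure D4:**
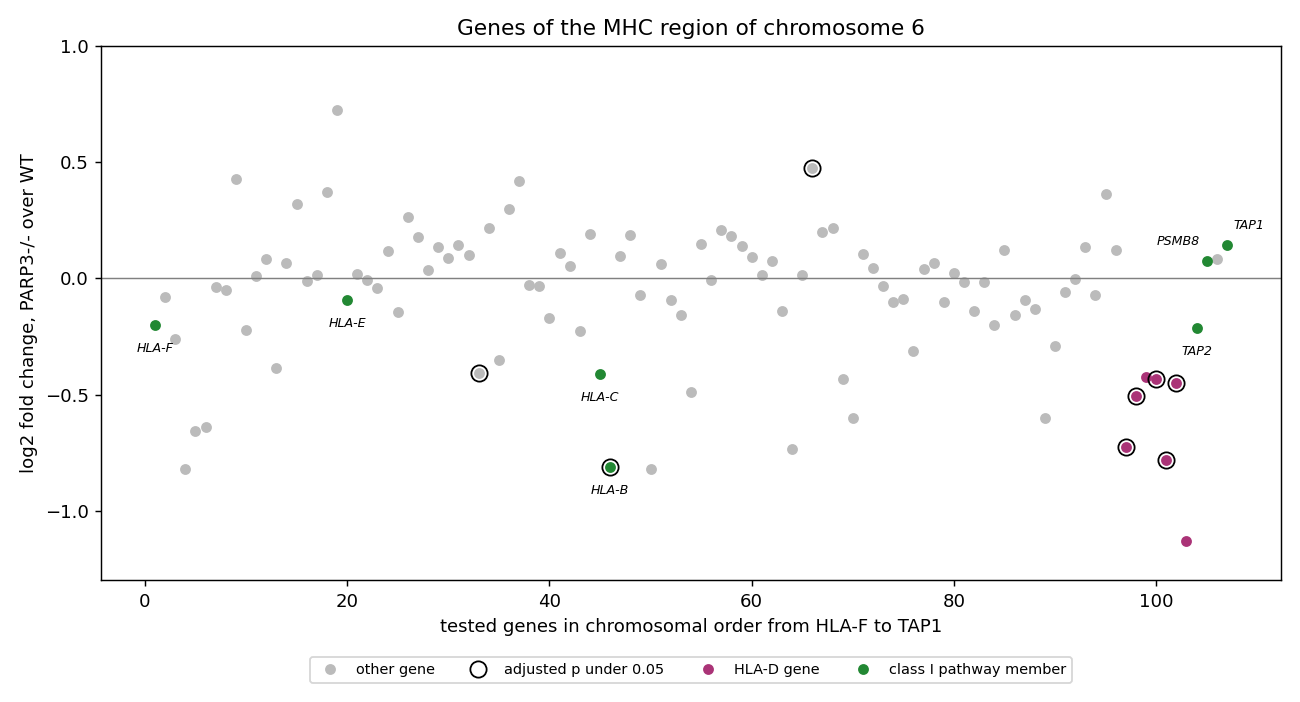
Log2 fold change (PARP3-/- over WT) of each tested gene of chromosome 6 from HLA-F to TAP1, in chromosomal order, with genes past an adjusted p of 0.05 ringed. HLA-B (-0.81), 5 HLA-D genes and FLOT1 are the ringed points below 0, and TAP1 (0.14), TAP2 (-0.21) and PSMB8 (0.07) sit next to the HLA-D genes.

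The class II genes fell together in the cells in which HLA-B fell. All 6 genes of a marker list for professional antigen presenting cells were called lower, beside 3.33% of all tested genes. For all 6 the libraries did not overlap, beside 12.0% of all tested genes separated downward. Their median log2 fold change was -0.66. CIITA, the class II transactivator and relative of NLRC5, measured 50.2, 53.8 and 51.6 CPM in WT and 26.4, 30.5 and 32.4 CPM in PARP3-/- libraries (-0.80, SE 0.09, adjusted p = 0.00474). HLA-DRA fell by 0.73 (adjusted p = 0.00489), HLA-DPB1 by 0.81 (0.0144), HLA-DPA1 by 0.58 (0.0148), HLA-DRB1 by 0.43 (0.0373) and the invariant chain CD74 by 0.59 (0.0385) on the log2 scale. Summed over the 6 genes, the level was 1483 to 1698 CPM in WT and 991 to 1116 CPM in PARP3-/- libraries. Only 2 of the 6 remained called without WT replicate 3, PARP3-/- replicate 2 or PARP3-/- replicate 3. Markers of leukocytes, which also express class II, were near 0: 5 of the 6 were in the table, 2 of these had at most 3 counts in every library, and their summed level was 0.585 to 0.810 CPM in WT and 0.794 to 1.23 CPM in PARP3-/- libraries. The 3 endothelial markers summed to 0.286 to 0.821 CPM in WT and 0.224 to 0.431 CPM in PARP3-/- libraries.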

How the data were processed

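RNA from 3 WT and 3 PARP3-/- LN229 samples was depleted of ribosomal RNA and sequenced as stranded single-end libraries. The authors trimmed reads with cutadapt 1.10, removed ribosomal and spike-in reads with Bowtie2 2.2.8, aligned to hg38 with STAR 2.5.3a and deposited raw counts per Ensembl gene from HTSeq 0.6.1p1 in union mode; the strand setting is not given in the sources used here, so overlapping antisense genes (PSMB8-AS1, HLA-F-AS1) may share reads with PSMB8, TAP1 and HLA-F. The table's 12 other columns of per-sample values and its columns of the authors' own comparison (log2 fold changes and p-values) were not used.

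Counts were TMM-scaled and fitted with edgeR 4.0.16 (R 4.3.3; glmQLFTest, genotype only, filterByExpr with a minimum count of 10), with Benjamini-Hochberg adjustment over 17144 genes and calls at 0.05. DESeq2 1.42.0, RLE factors, other filters, a stricter threshold, a replicate block and fits leaving out libraries were alternatives. Log ratios within libraries were compared by exact two-sided permutation tests. On simulated counts with 200 changed genes, edgeR recovered 193, with 15 false calls among 17192 genes. The changed genes were drawn from those with a mean count of at least 50. The simulated libraries lacked the shift of replicate 1 that both genotypes share, so these rates need not hold for the real libraries. Of the 100 genes given a log2 fold change of 1 in size, 93 were recovered. The largest difference among the members, that of HLA-B, was smaller at -0.81. How often differences of the members' size are recovered was not tested, so a member that was not called may still differ. Intervals cover the spread between samples, and the floor of 3 counts covers counting error only.

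Deviations from the genotype means correlated between same-numbered libraries (0.68, 0.52 and 0.24 for replicates 1, 2 and 3, over 17144 genes) and from -0.63 to 0.41 between different numbers. The value of replicate 3 lay within that range. WT replicate 2 with PARP3-/- replicate 3 gave 0.41, and WT replicate 3 with PARP3-/- replicate 2 gave 0.26. The numbers come from the sample titles, which do not say what a number shared, and blocked values are printed where they change a call.

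Named genes were the 9 members, pathway genes past the threshold with or without the block, the 3 subunit pairs and PARP3. The folding chaperone HSPA5, the HLA-B ratios, FLOT1, DDAH2, HCP5, MICA and MICB were named after values were seen. Members and lists were chosen with earlier results of these data known. Class II and cell type markers were lists for a check of the cells. ULBP1 was not analysed here, and 1 gene of the pathway list is not reported here. Promoter sequences are those of RefSeq on GRCh38.p14, with 7 of 9 members matched by symbol.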

Additional observations from a re-analysis of the deposited data

How the results depend on the processing

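Of the 108 alternative values of the 9 genes' fold changes, 100 kept their direction and side of the threshold, 5 became called and 3 lost the call, all 3 of these for HLA-B. The replicate block raised the called genes from 1 to 3 among the 9 and from 1 to 11 among the pathway genes, and it changed no call of the class II genes. Leaving out replicate 1 of both genotypes, chosen after seeing the data, gave 4 and 8. The 8 pathway genes were 3 lower and 5 higher, where 10.1% of all genes were called lower and 8.91% higher. An adjusted p under 0.001 with a log2 fold change beyond 1 left 0 of the 9 genes, 0 pathway genes and 0 class II genes. Leaving out 1 library at a time gave 0 to 1 called among the 9, 0 to 1 among the pathway genes and 2 to 5 of the 6 class II genes, with fewer samples in each fit. These fits gave subunit ratio differences of 0.14 to 0.23 for PSMB8 to PSMB5, 0.073 to 0.33 for PSMB9 to PSMB6 and 0.034 to 0.41 for PSMB10 to PSMB7. The log2 fold change of PSMB6 ranged from -0.19 to 0.11, turning sign in 2 of these fits. CD74 had an adjusted p of 0.0546 with a mean count of at least 50. Pairing the subunit ratios by replicate block left their differences as they were, and 3 pairs allow no p below 0.25 in the exact test. Summing rows that share a name gave no other value, since each name had 1 row. NLRC5, at 3.68 to 4.95 CPM, rests on the fewest counts of the 9.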

Other observations

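Over the 6 libraries, the mean centred log2 CPM of the 9 genes was 0.14, 0.047 and 0.048 in WT and -0.044, -0.068 and -0.12 in PARP3-/- libraries. This mean does not show a drop shared by the 9 genes. HLA-B (-0.81) and HLA-C (-0.41) had the log2 fold changes furthest below 0 and weigh most in it. Of the 9, 6 were below 0 and 3 above: B2M (0.27), TAP1 (0.14) and PSMB8 (0.07). Among 13759 other genes with a mean of at least 1 CPM, the 5 with the profile most like this mean by Pearson r were SGMS1-AS1 (0.998), DPCD (0.993), PRKAG1 (0.992), AL928921.2 (0.990) and CSF2RA (0.988). These correlations describe 6 points that share their libraries and depth.

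Among the glial markers, S100B, a calcium-binding protein of astrocytes, fell from 194 ± 44.2 to 93.0 ± 13.8 CPM (SD, n = 3, log2 fold change -1.06, edgeR adjusted p = 0.0256). OLIG2, a transcription factor of the oligodendrocyte lineage, was at 13.7 ± 2.05 and 9.53 ± 0.50 CPM (-0.53, adjusted p = 0.0800, and 0.00152 with the replicate block). SOX2, a stem cell factor, was at 38.7 ± 6.83 and 31.0 ± 3.11 CPM (-0.32, adjusted p = 0.335, and 0.00516 with the block). The other two tested markers were not called in either fit, with VIM at 0.14 (adjusted p = 0.700) and NES at -0.051 (adjusted p = 0.957).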
